A study of Mus musculus with 6 samples.

Results

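Respiratory complex I was described here through the 46 protein-coding genes whose symbol begins with Nduf, of 56923 gene identifiers in the count tables. They comprised 38 subunit genes (Ndufa, Ndufab, Ndufb, Ndufc, Ndufs and Ndufv) and 8 genes for assembly factors (Ndufaf1 to Ndufaf8). Poly-A RNA of whole snap-frozen mouse kidney had been sequenced in 3 control kidneys and 3 Pkd1 KO kidneys, all from male mice. Every animal carried Pkd1flox/flox and Tet-O-Cre and drank doxycycline (2 mg/ml, with 5% sucrose) for 14 days, from postnatal day 28 to 42, and kidneys were analysed at 10 weeks of age. The Pkd1 KO animals (Pkd1flox/flox.Pax8rtTA.Tet-O-Cre) also carried Pax8rtTA, a doxycycline-dependent activator driven in kidney tubule cells, so that Cre removed Pkd1 there and not in the other cells of the organ. The controls (Pkd1flox/flox.Tet-O-Cre) lacked the activator. The labels number the kidneys of a group and do not say more of their origin, so p-values measure the spread between these samples. In whole kidney, fewer cells of a type and less RNA per cell cannot be told apart.

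Complex I is the largest enzyme of the mitochondrial respiratory chain. It takes electrons from NADH in the N arm, passes them over iron-sulphur clusters to ubiquinone in the Q arm, and pumps protons through a proximal and a distal membrane arm. A conserved core, in part encoded by mitochondrial DNA, carries out the reaction, accessory subunits surround and stabilise it, and assembly factors help to build the enzyme without being part of it. In kidney, tubule cells that reabsorb salt and solutes are rich in mitochondria.

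Nuclear genes of the respiratory chain are known as targets of transcription factors such as NRF1, the ETS factor GABP, YY1 and the oestrogen-related receptors, and the stretch before the start site was therefore read for 40 of the 46 genes, those found by symbol in the RefSeq promoter table (GRCm38.p6, 250 bases before to 50 after the start). A gene with several entries was counted if any of them held the letters. On either strand, the NRF1 letters (GCGCA, any 1 base, then GCGC) stood in 9 of the 40 genes (22.5%), against 5.19% of 27025 genes in that table. AAGATGGC (YY1) stood in 8 (20%, against 3.19%), CCGGAAG (ETS) in 6 (15%, against 9.93%) and AAGGTCA (oestrogen-related receptors) in 3 (7.5%, against 5.38%). A match of letters is a description and not a measured binding site. The ETS letters end with the AAG with which the YY1 and receptor letters begin, so these matches can overlap.

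5 windows of 120 bases each are shown, which end as close to the start site as possible without entering an annotated exon. They were picked for the contrast in their genes' behaviour given further on: Ndufb4 (chr16:37654454-37654573, minus strand, ending 85 bases before the start) had the largest increase of all members, Ndufaf4 (chr4:24897963-24898082, plus strand) was an assembly factor called higher, Ndufs5 (chr4:123718203-123718322, minus strand) was not called, Ndufaf1 (chr2:119662835-119662954, minus strand) was level without and lower with offsets for GC content and length, and Ndufv1 (chr19:4012807-4012926, minus strand) was the member that fell most. Capitals mark the NRF1 letters in Ndufb4, Ndufaf4 and Ndufs5 and the ETS letters in Ndufaf1. The Ndufv1 window holds none of the 4 sets of letters. Besides the contrast in behaviour, the choice took in every such window of a member that holds any of these letters. The remaining windows hold none of them, and of those only that of Ndufv1 is shown.
Ndufb4: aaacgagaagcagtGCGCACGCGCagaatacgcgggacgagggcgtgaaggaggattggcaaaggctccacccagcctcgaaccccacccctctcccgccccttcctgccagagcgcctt
Ndufaf4: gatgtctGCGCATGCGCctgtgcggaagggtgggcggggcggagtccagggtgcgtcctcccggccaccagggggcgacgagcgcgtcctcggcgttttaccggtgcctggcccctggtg
Ndufs5: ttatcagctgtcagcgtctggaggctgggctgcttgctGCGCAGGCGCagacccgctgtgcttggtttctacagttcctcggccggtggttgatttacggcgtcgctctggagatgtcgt
Ndufaf1: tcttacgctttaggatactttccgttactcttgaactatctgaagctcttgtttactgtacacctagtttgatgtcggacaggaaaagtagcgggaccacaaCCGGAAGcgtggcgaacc
Ndufv1: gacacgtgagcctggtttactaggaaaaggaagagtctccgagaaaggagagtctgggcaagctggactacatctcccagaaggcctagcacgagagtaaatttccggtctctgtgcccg
Of the 9 genes with NRF1 letters (Ndufa5, Ndufa6, Ndufa8, Ndufa11, Ndufaf4, Ndufaf5, Ndufb4, Ndufs5 and Ndufs6), 6 were called higher in Pkd1 KO kidneys by the test described next, as were 15 of the 31 genes with a promoter entry and no such letters. With the ETS letters 1 of 6 genes was called higher, against 20 of 34 without them. For the YY1 letters these counts were 4 of 8 against 17 of 32, and for the receptor letters 2 of 3 against 19 of 37. A link between letters and calls was not tested.

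Between 45020173 and 62983791 reads per library were counted on genes, and all 46 genes passed the filter on low counts. Levels are given as CPM, the counts scaled to a common library size, after TMM scaling, and differences as log2 fold changes, Pkd1 KO minus control, with their standard error (SE). A gene was called where its p-value from edgeR's quasi-likelihood test, Benjamini-Hochberg adjusted over all 18273 genes tested, was under 0.05. By this rule 46.9% of all genes were called, 22.7% higher and 24.2% lower in Pkd1 KO. The names of the deposited files carry 2 different codes, taken here as sequencing projects, and 0 of these codes held both groups. The labels do not say what the codes stand for. Genotype and any batch that they mark cannot be told apart in any result. The fold changes of all genes also followed GC content and transcript length (Spearman's rho -0.39 with each, over 17785 genes), and a second fit with per-library offsets for both was therefore made, in which 34.5% of genes were called, 17.1% higher and 17.4% lower. Pkd1 itself stood at 30, 46.4 and 23.6 CPM in controls 1 to 3 and at 8.77, 9 and 10 in Pkd1 KO kidneys 1 to 3, a log2 fold change of -1.85 (SE 0.24, adjusted p = 0.00234) that came to -0.34 (adjusted p = 0.0643) with the offsets. The labels do not say which exons of Pkd1 are flanked by loxP sites, so reads from exons left in place may be among these.

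Among the 38 subunit genes, 19 were higher in Pkd1 KO kidneys, 2 were lower and 17 were not called, and their median log2 fold change was 0.55, where that of all genes was 0.03. The 8 assembly factor genes held 4 that were higher, 0 that were lower and 4 that were not called, with a median of 0.64. With GC and length offsets, 12 subunit genes were higher and 2 lower (median 0.15), and 3 assembly factor genes were higher and 1 lower (median 0.14), where the median of all genes was 0.00. In 29 of the 46 genes the 3 Pkd1 KO kidneys all lay above the 3 controls, and in 3 genes all lay below, against 31.2% and 30% of all genes tested, or 61.2% in either direction. Of the 19 higher subunit genes, 17 were accessory subunits, and the distal membrane arm had more higher calls than the other arms, while the catalytic core was split. At an unadjusted p under 0.05, 0 assembly factors were lower by edgeR, and DESeq2 also called 0 of them lower.

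**Figure D1:**
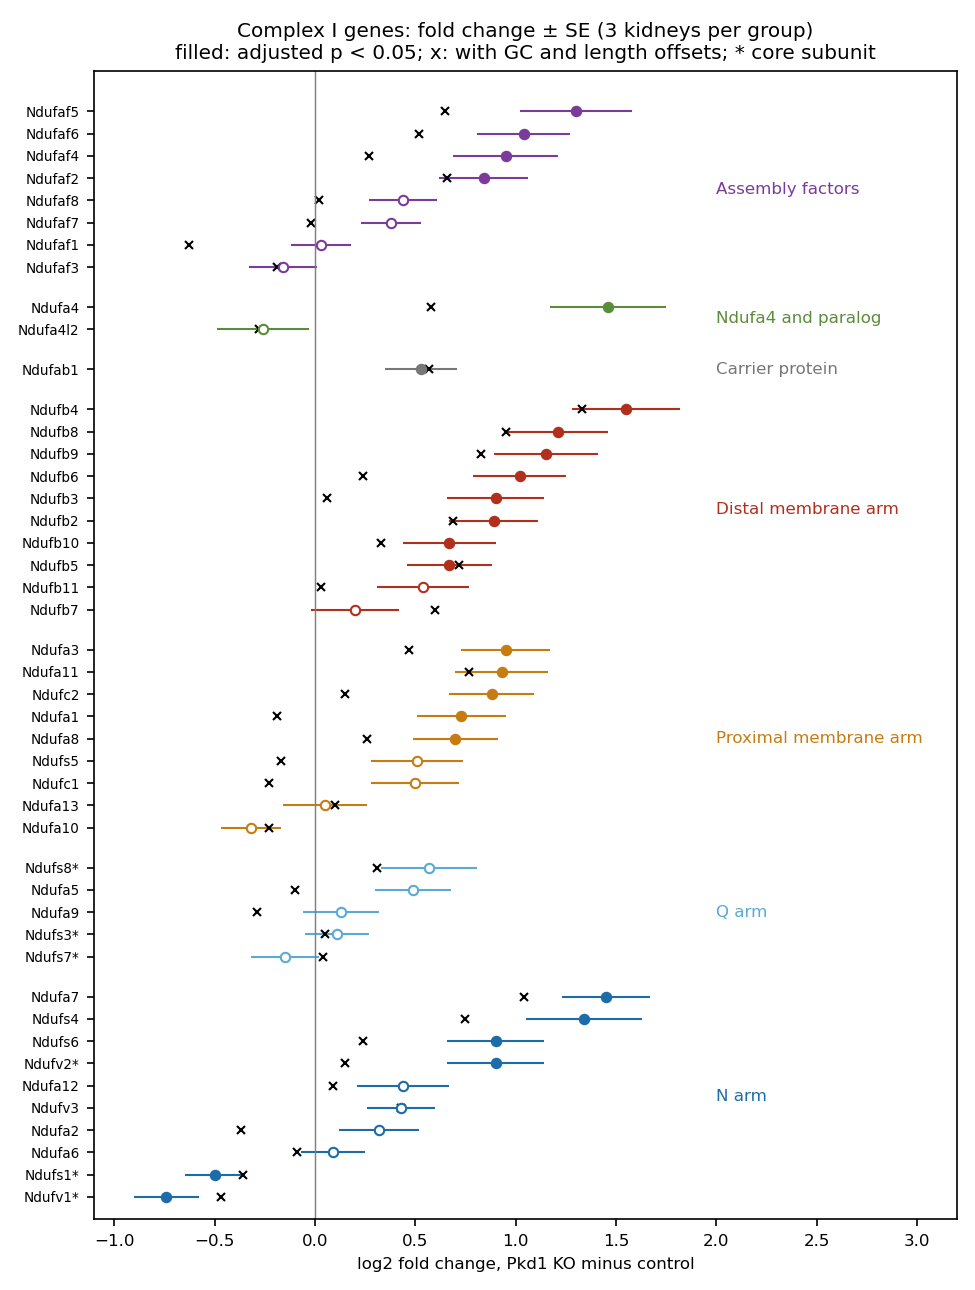
Log2 fold change (Pkd1 KO minus control, x axis) of 45 of the 46 genes with its SE, 3 kidneys per group, sorted within the arms of the enzyme. Filled points are called at an adjusted p under 0.05, crosses give the value with GC and length offsets, and an asterisk marks a core subunit: 8 of 10 distal membrane arm genes are filled, and Ndufv1 and Ndufs1 are the filled points below 0.

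The 7 core subunits encoded in the nucleus carry the flavin, the iron-sulphur clusters and the quinone site. 1 of them was higher, 2 were lower and 4 were not called, with a median log2 fold change of -0.15 (0.04 with offsets). Ndufv1, the subunit that binds NADH and flavin, stood at 425, 365 and 452 CPM in the controls and at 280, 227 and 236 in the Pkd1 KO kidneys. Every control lay above every Pkd1 KO kidney, and the log2 fold change was -0.74 (SE 0.16, adjusted p = 0.00618). It remained lower with both offsets (-0.47, adjusted p = 0.0286) and when any 1 library was left out, but not with offsets for GC alone (-0.34, adjusted p = 0.126).

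Ndufv2, which sits beside Ndufv1 and holds an iron-sulphur cluster of its own, went the other way. It was measured at 238, 166 and 341 CPM in controls and 463, 479 and 443 in Pkd1 KO kidneys, a log2 fold change of 0.90 (SE 0.24, adjusted p = 0.0154). The groups did not overlap, but the 3 controls spread over a wide range. The call was lost with offsets (0.15, adjusted p = 0.503), without control 1 (0.84, adjusted p = 0.0628) and without Pkd1 KO 2 (0.87, adjusted p = 0.0595). As a ratio within each library, Ndufv1 to Ndufv2 was 1.78, 2.19 and 1.33 in controls and 0.604, 0.474 and 0.533 in Pkd1 KO kidneys, or 1.77 ± 0.433 against 0.537 ± 0.0652 (SD, n = 3 each). These ratios do not overlap, and the 2-sided exact permutation p was 0.1, the smallest that 3 against 3 libraries can give. The pair was chosen after its values were seen. Each gene already lay apart between the groups, in opposite directions, so this outcome was fixed in advance and adds nothing to the separate results.

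Ndufs1, the large subunit of the N arm with several iron-sulphur clusters, was close to constant in controls, at 290, 283 and 279 CPM, and lower in each Pkd1 KO kidney, at 229, 176 and 198. Its log2 fold change was -0.50 (SE 0.15, adjusted p = 0.0222). The adjusted p rose to 0.0743 with offsets (-0.36), to 0.0674 without control 1 (-0.51), to 0.114 without Pkd1 KO 2 (-0.41) and to 0.0873 without Pkd1 KO 3 (-0.49).

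The core subunits of the Q arm hold the last clusters and shape the quinone pocket, and none of the 4 was called. Ndufs3 was measured at 156, 121 and 168 against 169, 153 and 156 CPM (0.11, SE 0.16, adjusted p = 0.602), and Ndufs7 at 215, 153 and 224 against 190, 174 and 170 (-0.15, SE 0.17, adjusted p = 0.506). Both overlapped between the groups, and 35.8% of the 50-base windows of Ndufs3 recur in pseudogenes, so that its count is uncertain. Ndufs8 had 167, 111 and 232 CPM in controls and 274, 248 and 235 in Pkd1 KO kidneys. These did not overlap by a narrow margin, and the difference of 0.57 (SE 0.24, adjusted p = 0.0829) was called only in the fit without control 3 (0.81, adjusted p = 0.00545) among those that leave out 1 library.

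The 29 accessory subunits, counted without Ndufa4 and its paralog, held 17 genes that were higher and 0 that were lower, with a median log2 fold change of 0.67. With offsets 11 were higher and 1 lower, with a median of 0.24. Summed over the core subunits, the level was 2026, 1632 and 2303 CPM in controls and 2063, 1828 and 1853 in Pkd1 KO kidneys, which overlap. Over the accessory subunits the sums were 3963, 2951 and 5209 against 6445, 6597 and 5900 CPM, which do not. The median exon length was 2178 bases for the core subunits and 1532 for all subunits, core and Ndufa4 paralogs included. The median GC content was 54.1% and 51.4%. The core thus also differs from the whole set of subunits in the properties that the offsets address.

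**Figure D2:**
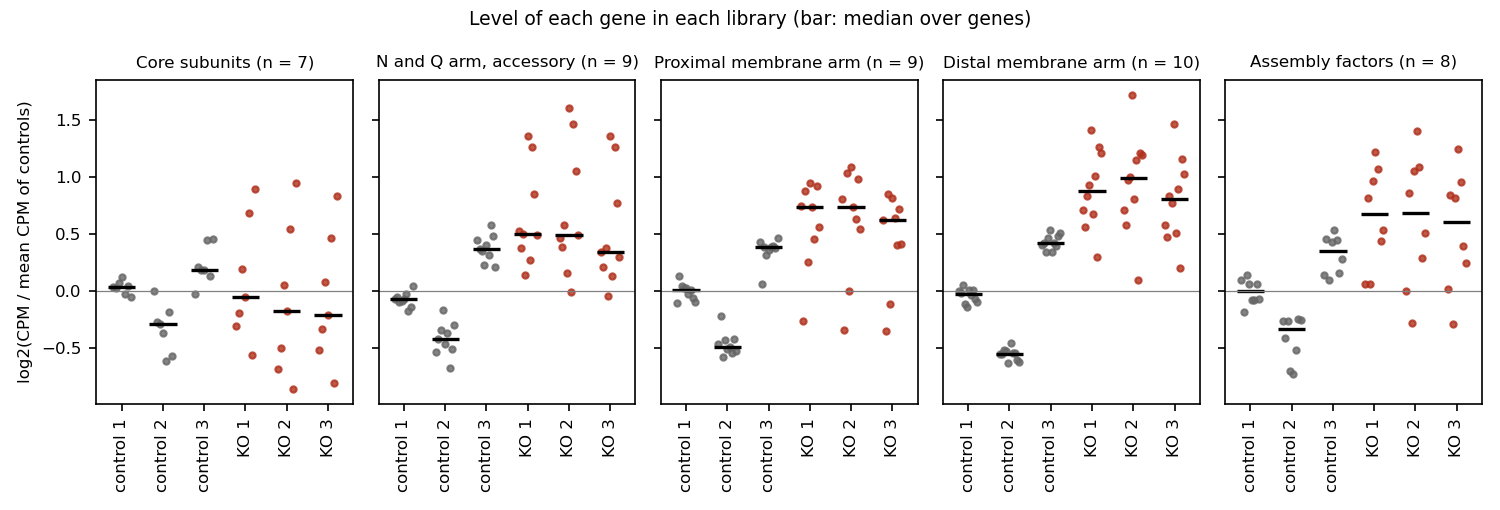
Level of each gene in each of the 6 libraries relative to its control mean, as log2 of the CPM ratio (y axis), in 5 classes of complex I genes, with a bar at the median over genes. Control 2 is the lowest and control 3 the highest control in every class by its median, and the Pkd1 KO medians of the core subunits lie between -0.22 and -0.05 while those of the distal membrane arm lie between 0.80 and 0.99.

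The N arm as a whole, core included, had 4 of 10 genes higher and 2 lower (median 0.44), and 3 higher and 2 lower with offsets (median 0.12). Its accessory subunits Ndufa7 and Ndufs4 were among the most increased genes. Ndufa7 stood at 93.3, 70.8 and 130 CPM in controls and at 252, 298 and 251 in Pkd1 KO kidneys, a log2 fold change of 1.45 (SE 0.22, adjusted p = 0.0027). Ndufs4, whose loss is a known cause of Leigh-like disease in mice, was measured at 105, 74 and 177 against 285, 329 and 285 CPM (1.34, SE 0.29, adjusted p = 0.00626). In both genes every Pkd1 KO kidney was well above the highest control, and both remained higher with offsets, at 1.04 (adjusted p = 0.00248) and 0.75 (adjusted p = 0.019). Ndufa6, which contacts an acyl carrier protein, did not move with them: it had 187, 177 and 234 CPM in controls and 220, 223 and 193 in Pkd1 KO kidneys, values that overlap (0.09, SE 0.16, adjusted p = 0.662).

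In the Q arm 0 of 6 genes were called in either direction (median 0.12, and -0.03 with offsets). At an unadjusted p under 0.05 the same edgeR test gave 2 higher and 0 lower, and DESeq2 called 0. Ndufa9, an accessory subunit at the junction with the membrane, stood at 207, 163 and 263 CPM in controls and 254, 209 and 232 in Pkd1 KO kidneys, with full overlap (0.13, SE 0.19, adjusted p = 0.586).

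Of the 9 proximal membrane arm genes, 5 were higher and 0 lower (median 0.70), and 2 remained higher with offsets (median 0.10). Ndufa13 and Ndufa10 had the smallest values of the arm. Ndufa13, a membrane subunit, had 269, 196 and 328 CPM in controls and 315, 264 and 243 in Pkd1 KO kidneys (0.05, SE 0.21, adjusted p = 0.851). Tssk6 covers 30% of its exon bases, and reads over those bases cannot be assigned to either gene. Ndufa10 had 315, 246 and 300 CPM in controls and 239, 226 and 224 in Pkd1 KO kidneys. Its Pkd1 KO values all lay below the controls, and the difference of -0.32 (SE 0.15, adjusted p = 0.1) was called only without control 2 (-0.46, adjusted p = 0.0142) among the fits that leave out 1 library.

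The distal membrane arm, made of the Ndufb subunits, had 8 of 10 genes higher and 0 lower, with a median of 0.90, and its summed level was 1206, 842 and 1674 CPM in controls and 2274, 2309 and 2094 in Pkd1 KO kidneys. With offsets 5 of the 10 were higher (median 0.64), all of them among the 8, and without control 1 or without Pkd1 KO 2 the count of 8 was also 5. Ndufb4 changed most of all 46 genes: it stood at 25.8, 18.3 and 41.4 CPM in controls and at 76.1, 94.3 and 79.1 in Pkd1 KO kidneys, 2.92 times as high (log2 fold change 1.55, SE 0.27, adjusted p = 0.00343). Ndufb8, often used as the antibody target for complex I on blots, had 199, 137 and 292 CPM in controls and 505, 484 and 467 in Pkd1 KO kidneys (1.21, SE 0.25, adjusted p = 0.00568). In both genes the lowest Pkd1 KO kidney lay far above the highest control, and with offsets the values were 1.33 (adjusted p = 0.00278) and 0.95 (adjusted p = 0.00752). For Ndufb4, 37% of the 50-base windows recur in copies elsewhere, among them the pseudogene Ndufb4c, which was higher as well (0.291, 0.104 and 0.539 CPM against 1.07, 1.62 and 1.12).

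The 21 subunits not described one by one include the carrier protein Ndufab1, which also serves mitochondrial fatty acid synthesis. Among them 13 were higher, with log2 fold changes from 0.53 to 1.15, and 8 were not called, with values from 0.20 to 0.54. With offsets 7 of the 21 were higher and 1 (Ndufa2, -0.37, adjusted p = 0.039) was lower. Ndufa1, a small subunit encoded on the X chromosome, shows how far single members depend on the correction: its log2 fold change of 0.73 (adjusted p = 0.0237) became -0.19 (adjusted p = 0.251). It is the shortest of the 46 genes, with 419 exon bases. Ndufb2 was low in all libraries, between 4.46 and 12.6 CPM.

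Ndufa4 was first described with complex I and is now counted to complex IV, and Ndufa4l2 is its hypoxia-inducible paralog. Per length, Ndufa4 had the highest level of the 46 genes, at a mean of 371 RPKM (CPM per kilobase of exon) in controls and 1020 in Pkd1 KO kidneys. It stood at 465, 322 and 750 CPM in controls and 1340, 1586 and 1305 in Pkd1 KO kidneys, without overlap (1.46, SE 0.29, adjusted p = 0.00472). With offsets the difference was 0.58 (adjusted p = 0.0395). Ndufa4l2 was low, at 6.35, 3.84 and 3.93 CPM in controls and 3.78, 4.05 and 3.98 in Pkd1 KO kidneys (-0.26, SE 0.23, adjusted p = 0.381). Only control 1 stood apart, and the other 5 libraries were alike.

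The assembly factors fell into 4 genes that were higher and 4 that were not called. Ndufaf5, which modifies an arginine of a core subunit during assembly, showed the largest change: 16.3, 10.4 and 24.9 CPM in controls and 40.2, 45.7 and 40.9 in Pkd1 KO kidneys (1.30, SE 0.28, adjusted p = 0.00623). Ndufaf6, needed for early assembly steps, was measured at 28.5, 21 and 41.1 against 63.7, 64.5 and 58.6 CPM (1.04, SE 0.23, adjusted p = 0.00655). Neither overlapped between the groups, and both stayed higher with offsets (0.65, adjusted p = 0.0235, and 0.52, adjusted p = 0.0203) and in each fit that left out 1 library.

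Ndufaf4 acts with Ndufaf3 in building the Q arm, and the 2 differed. Ndufaf4 had 87.3, 51.2 and 113 CPM in controls and 164, 174 and 147 in Pkd1 KO kidneys (0.95, SE 0.26, adjusted p = 0.0155). Ndufaf3 had 26.5, 20.1 and 25.8 against 25.2, 19.7 and 19.7 CPM (-0.16, SE 0.17, adjusted p = 0.45). The Ndufaf3 groups overlapped, while those of Ndufaf4 did not. The Ndufaf4 call was lost with offsets (0.27, adjusted p = 0.281), without control 1 (0.96, adjusted p = 0.0522), without Pkd1 KO 1 (0.94, adjusted p = 0.0515) and without Pkd1 KO 2 (0.89, adjusted p = 0.0621). The difference between the 2 genes was not tested.

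Ndufaf2, a paralog of Ndufa12 that holds its place until the last steps, stood at 20.1, 17.1 and 31.2 CPM in controls and at 40.1, 41.5 and 40.9 in Pkd1 KO kidneys (0.84, SE 0.22, adjusted p = 0.0127), and remained higher with offsets (0.66, adjusted p = 0.0153). The groups did not overlap, although the call was lost without control 1 (0.73, adjusted p = 0.0602) and without Pkd1 KO 2 (0.83, adjusted p = 0.0506). The gene B230220B15Rik covers 65.6% of its exon bases on the opposite strand. Since counting ignored strand, reads over those bases cannot be assigned to either gene. Ndufa12 itself, with 17.2% of its windows shared with a pseudogene, was not called (0.44, SE 0.23, adjusted p = 0.138).

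The other 3 assembly factors were not called. Ndufaf1, which helps to build the proximal membrane arm, had 35.6, 27.7 and 36.6 CPM in controls and 34.7, 33.3 and 33.7 in Pkd1 KO kidneys, with overlap (0.03, SE 0.15, adjusted p = 0.893). With offsets it was lower (-0.63, adjusted p = 0.00469). Ndufaf7, a methyltransferase, had 44.3, 35.7 and 47.4 against 57.7, 51.9 and 55.7 CPM (0.38, SE 0.15, adjusted p = 0.0619). Its groups did not overlap, those of Ndufaf8 did. Ndufaf8, the partner of Ndufaf5, had 23.9, 21 and 30.5 against 36.4, 35.8 and 29.9 CPM (0.44, SE 0.17, adjusted p = 0.0654). Both were called without control 3, at 0.41 (adjusted p = 0.0332) and 0.55 (adjusted p = 0.0116).

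Set side by side, subunits and assembly factors moved by similar amounts, the median log2 fold change of the subunits being lower by 0.08. The subunit genes summed to 6460, 4909 and 8265 CPM in controls and to 9851, 10016 and 9062 in Pkd1 KO kidneys, and the assembly factor genes to 282, 204 and 350 against 462, 466 and 427. In neither class did the groups overlap. The sum of the subunits over that of the assembly factors was 22.9, 24 and 23.6 in controls and 21.3, 21.5 and 21.2 in Pkd1 KO kidneys, and without Ndufa4 it was 21.2, 22.5 and 21.5 against 18.4, 18.1 and 18.2. With all members summed, the ratio was lower in each Pkd1 KO kidney than in each control. Of the assembly factor sums, Ndufaf4 alone held 87.3, 51.2 and 113 CPM in controls and 164, 174 and 147 in Pkd1 KO kidneys. With Ndufaf4 left out and Ndufa4 kept, the ratios of the groups overlap, and with both left out they do not. The separation thus depends on which genes are summed. No p-value is given for these sums over members.

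The controls differed among themselves more than the Pkd1 KO kidneys did, and in a shared order. In 42 of the 46 genes (91.3%) control 2 was the lowest and control 3 the highest of the controls, as in 29.2% of all genes tested and 59.6% of those called higher. The coefficient of variation had a median over the 46 genes of 30.3% in controls and 7.31% in Pkd1 KO kidneys, and was the larger in controls for 43 of them. For all genes tested the medians were 22.1% and 10.5%. Among the 25 called members, 14 were called in all 6 fits that left out 1 library. Calls were lost for 11 members without control 1, 11 without Pkd1 KO 2, 6 without Pkd1 KO 1, 5 without Pkd1 KO 3, 1 without control 2 and 0 without control 3. Without control 1 or without Pkd1 KO 2, 11 subunit genes and 2 assembly factor genes were called higher, and 27 subunit genes and 6 assembly factor genes were without control 3.

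Base composition and length moved with the fold changes of the members too. Spearman's rho over the 46 genes was -0.43 between fold change and GC content and -0.20 between fold change and exon length, as a description over genes that share libraries. In both fits 14 members were higher and 1, Ndufv1, was lower. A further 9 were higher only without offsets, and 3 were called only with them: Ndufv3 higher (0.43, adjusted p = 0.0417), Ndufa2 and Ndufaf1 lower. The part that GC content and length have in these differences was not tested beyond these fits.

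**Figure D3:**
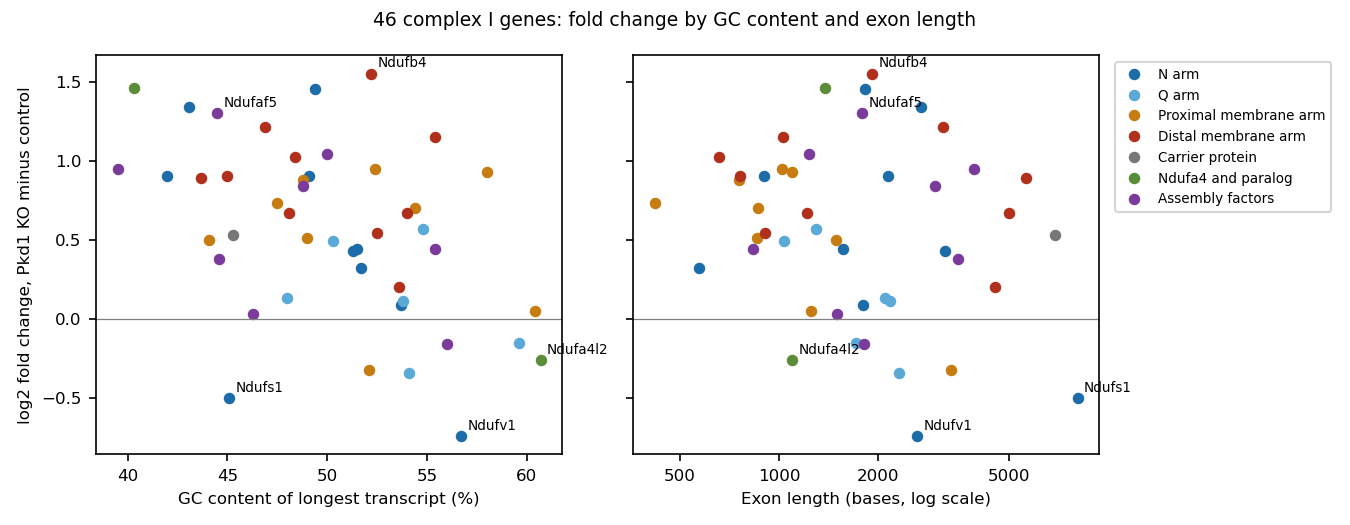
Log2 fold change (Pkd1 KO minus control, y axis) of the 46 genes against GC content of the longest transcript (left, in %) and exon length (right, log scale, in bases), coloured by arm or class. Genes of low GC content tend to lie higher (rho -0.43), whereas Ndufv1 (56.7% GC) and Ndufs1 (45.1% GC) lie lowest at different GC contents.

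Ndufb1, a further distal subunit, carries the symbol Ndufb1-ps in the annotation used for names, where it is classed as non-coding, so it fell outside the 46. It stood at 54.1, 34.6 and 92 CPM in controls and 162, 214 and 149 in Pkd1 KO kidneys, without overlap (1.54, SE 0.32, adjusted p = 0.00592), and was also higher with offsets (1.34). RefSeq lists the same locus as the protein-coding gene Ndufb1. Counted with the distal membrane arm it would lie near its upper end.

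Other assembly factors of complex I, which do not bear the Nduf name, gave 6 of 14 higher and 1 lower (median 0.20). The 3 with the largest increase were Tmem126a (1.36), Lyrm2 (1.18) and Tmem70 (1.05), and with offsets 3 of the 14 were higher and 2 lower, without Tmem70 (0.37, adjusted p = 0.0582). Aifm1, which is needed for the import of small respiratory chain subunits through its partner Chchd4, stood at 140, 171 and 108 CPM in controls and at 69.3, 67.7 and 63.6 in Pkd1 KO kidneys. It fell without overlap (-1.06, SE 0.18, adjusted p = 0.00313, and -1.25 with offsets). Chchd4 went the other way (0.83, SE 0.22, adjusted p = 0.0149, and 0.76, adjusted p = 0.0186, with offsets). The Chchd4 call was lost without control 1 (adjusted p = 0.0552), Pkd1 KO 1 (adjusted p = 0.0505) or Pkd1 KO 2 (adjusted p = 0.0583).

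Of the 6 core subunits encoded by mitochondrial DNA that could be tested, 0 were higher and 2 lower (median -0.30). Among the 6, mt-Nd3 was near the floor in all libraries, between 0.104 and 0.425 CPM. Its log2 fold change of 0.84 (SE 0.52, adjusted p = 0.207) is therefore uncertain, and it enters the median. At an unadjusted p under 0.05 edgeR gave the same 0 and 2, and DESeq2 called 0 and 2. mt-Nd5 stood at 5834, 9479 and 6677 CPM in controls and at 3623, 3261 and 3298 in Pkd1 KO kidneys (-1.11, adjusted p = 0.00475), and mt-Nd6 at 1225, 2067 and 1410 against 828, 910 and 713 (-0.94, adjusted p = 0.00923). Neither overlapped between the groups, and control 2 was here the highest control. With offsets 5 of the 6 were lower (median -1.40). Their GC content is at the low end of the range, where the offsets rest on few genes: mt-Nd1, with the highest among those tested, has 37.6%, and 2.29% of the genes tested have as little or less. mt-Nd5 and mt-Nd6 lie on opposite strands next to each other, and the counts do not use strand.

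Among the nuclear subunits of complexes II to V, 26 of 43 were higher and 3 lower, with a median of 0.69 (11 and 2 with offsets, median 0.32). The largest increases were those of the complex IV subunits Cox7b (1.46) and Cox7a1 (1.43) and the ATP synthase subunit Atp5e (1.35). The 3 lower genes were Sdha (-1.06), the flavin subunit of complex II, Atp5a1 (-0.53), the alpha subunit of ATP synthase, and Uqcrc1 (-0.46), a core protein of complex III. With offsets Sdha (-1.09, adjusted p = 0.0059) and Cox5a (-1.01, adjusted p = 0.0025), a structural subunit of complex IV, were the lower ones, and Atp5a1 (-0.31, adjusted p = 0.114) and Uqcrc1 (-0.16, adjusted p = 0.462) were not called. Atp5a1 also lost its call without control 1 (-0.53, adjusted p = 0.0682), Pkd1 KO 2 (-0.51, adjusted p = 0.091) or Pkd1 KO 3 (-0.51, adjusted p = 0.0776), and Uqcrc1 without control 1 (-0.45, adjusted p = 0.113) or any 1 Pkd1 KO kidney (adjusted p = 0.0617, 0.174 and 0.137). The count of 26 was 8 without control 1, 12 without Pkd1 KO 1, 6 without Pkd1 KO 2 and 15 without Pkd1 KO 3.

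**Figure D4:**
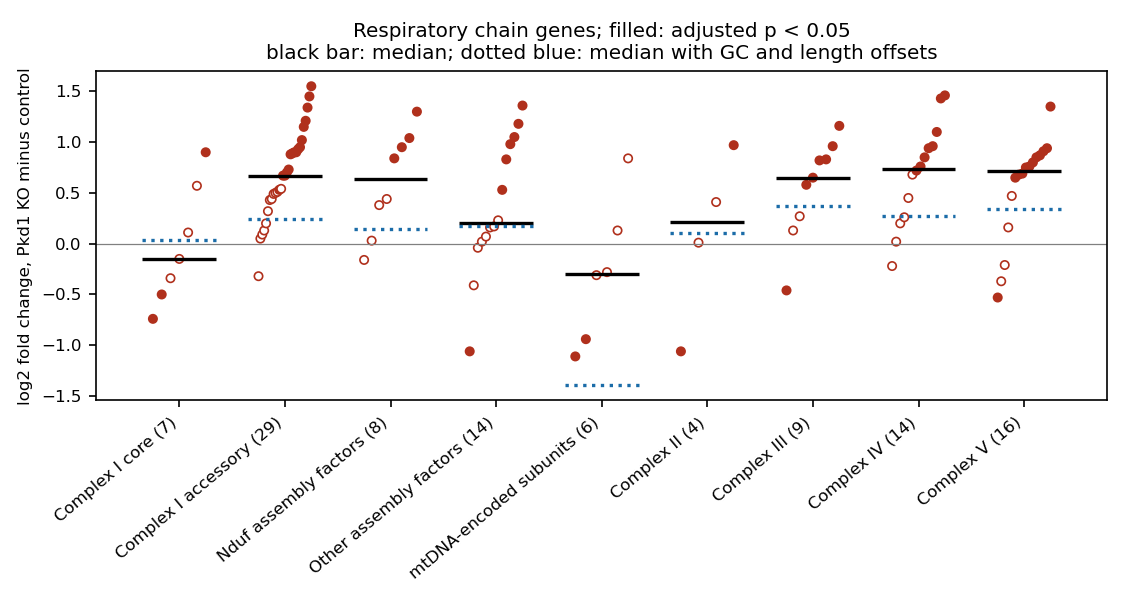
Log2 fold change (Pkd1 KO minus control, y axis) of each gene in 9 classes of respiratory chain genes, with the number of genes tested in brackets. Filled points are called at an adjusted p under 0.05, black bars are medians and dotted blue bars medians with GC and length offsets: the median of the complex I accessory subunits is 0.67, that of the core subunits -0.15 and that of the subunits encoded by mitochondrial DNA -0.30.

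Among 11 regulators of oxidative metabolism, 1 was higher and 6 were lower (median -0.48), and 1 and 5 with offsets (median -0.61). The coactivator Ppargc1b had 7.15, 16.2 and 3.97 CPM in controls and 4.27, 2 and 2.83 in Pkd1 KO kidneys (-1.60, adjusted p = 0.0245), values that overlap. It was -0.92 (adjusted p = 0.0369) without control 2 and not called without Pkd1 KO 2 (-1.37, adjusted p = 0.096), without Pkd1 KO 3 (-1.55, adjusted p = 0.0728) or with offsets (-0.87, adjusted p = 0.115). Esrrb, an oestrogen-related receptor, had 35.7, 33.9 and 25.6 against 11.5, 11.1 and 12 CPM (-1.46, adjusted p = 0.00224), without overlap, and was lower with offsets as well (-0.73, adjusted p = 0.00356). The nuclear receptor Ppara was lower in both fits (-1.14, adjusted p = 0.00593, and -1.01, adjusted p = 0.00863, with offsets), whereas the coactivator Pprc1 was lower without offsets (-1.14, adjusted p = 0.00333) and not called with them (-0.28, adjusted p = 0.143). Tfam, which maintains and transcribes mitochondrial DNA, was higher without offsets (0.46, adjusted p = 0.0296) and not called with them (0.21, adjusted p = 0.186), and Nrf1 was the reverse (0.12, adjusted p = 0.505, and 0.42, adjusted p = 0.0232). The Tfam call was also lost without control 1 (0.39, adjusted p = 0.123), Pkd1 KO 1 (0.41, adjusted p = 0.111), Pkd1 KO 2 (0.49, adjusted p = 0.0821) or Pkd1 KO 3 (0.48, adjusted p = 0.0846). Without Pkd1 KO 2 or without Pkd1 KO 3, 3 of the 11 were lower.

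Mitochondrial import and outer membrane genes gave 3 of 12 higher, led by the receptor Tomm20 (0.91), and 3 lower, led by the channel Tomm40 (-0.74), with a median of 0.08. With offsets 1 was higher and 1 lower (median -0.10), Tomm20 remaining higher (0.73) and Tomm40 not called (-0.27, adjusted p = 0.111). Hypoxia response genes gave 3 of 14 higher, led by Bnip3 (1.28), and 4 lower, led by Egln1 (-0.92), with a median of -0.28, and 2 higher and 2 lower with offsets (median -0.10).

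Markers of kidney cell types moved beside the complex I genes. Of 14 proximal tubule markers, 10 were lower and 2 higher, with Slc13a3 at -2.24 and Kap, a protein of very high level in males, at 1.14. Their sum ranged from 44152 to 51593 CPM in controls and from 58601 to 67255 in Pkd1 KO kidneys, and without Kap the other 13 summed to 28642, 30175 and 25013 CPM against 22239, 19738 and 18922, the opposite direction. Lower calls were made for 3 of 6 thick ascending limb, 4 of 5 distal convoluted tubule, 5 of 5 principal cell, 3 of 6 intercalated cell, 5 of 6 podocyte, 5 of 7 endothelial and 4 of 9 mural cell markers, with higher calls for 1, 0, 0, 1, 0, 2 and 2. Fibroblast markers gave 3 of 6 higher and 2 lower, macrophage markers 6 of 10 and 1, T and NK cell markers 5 of 8 and 0, and B and plasma cell markers 3 of 6 and 0. The summed macrophage markers ranged from 117 to 154 CPM in controls and from 209 to 338 in Pkd1 KO kidneys, and without Lyz2 the other 9 summed to 128, 104 and 107 CPM against 111, 150 and 130, which overlap. With offsets 10 proximal tubule, 4 thick ascending limb, 5 distal convoluted tubule, 3 principal cell, 4 intercalated cell, 1 podocyte, 2 endothelial, 2 mural cell and 0 fibroblast markers were lower. Kap was not called with them (0.22, adjusted p = 0.407), and higher calls stood at 0 for proximal tubule, 3 for fibroblast, 6 for macrophage, 3 for T and NK cell and 2 for B and plasma cell markers. The part of cell composition in the complex I values was not tested.

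Fat around the kidney can include brown fat, which is also rich in mitochondria, and markers of brown and white fat were uneven. The summed brown adipocyte markers were 1.88, 0.778 and 5.88 CPM in controls and 7.14, 6.31 and 26.8 in Pkd1 KO kidneys, with Ucp1 at 0 in control 2 and at 14.7 in Pkd1 KO 3. Of the 4 brown markers 1 was called higher, and of 4 white markers tested 2 were, with 0 of either called with offsets. White adipocyte markers summed to 4.8, 2.61 and 15.6 against 22.6, 10.4 and 63.2 CPM. Both sums are lowest in control 2 and highest, among controls, in control 3. That order was also found in 42 of the 46 complex I genes, 29.2% of all genes tested and 59.6% of those called higher. Pkd1 KO 3, with the highest of these sums, had the lowest complex I total of the Pkd1 KO kidneys (9489 CPM, against 10313 and 10482), and without it 15 subunit genes and 4 assembly factor genes were higher. The part of fat in the complex I values was not tested.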

How the data were processed

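Gene-level read counts of 6 kidneys were analysed (7 tables, because control 1 was sequenced in 2 runs, which were summed). Per the submitters' processing notes, the authors used cutadapt 4.0, FastQC 0.11.8 and STAR 2.6.1e with the mouse build GRCm39; the deposited tables give raw counts per Ensembl gene, and column 2, which ignores strand, was used because the columns for either strand held nearly equal shares (49.1% to 50% for the first). The kit does not mark strand as far as these values show, so reads over bases that genes share cannot be assigned to either gene. Lines that name no gene were left out. They held 22.9%, 23.5% and 23.8% of reads in controls 1 to 3 and 25.3%, 26.3% and 25.6% in Pkd1 KO kidneys 1 to 3, without overlap. Symbols, exon lengths and GC content came from GENCODE M21 (GRCm38), which is not the annotation used for counting; 52073 of 56923 identifiers matched.

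Counts were filtered with filterByExpr, TMM-scaled and tested with edgeR 4.0.16 (limma 3.58.1, R 4.3.3) by glmQLFTest over the 6 kidneys, without covariates, with Benjamini-Hochberg adjustment and a threshold of 0.05. The second fit added per-library offsets from loess curves (span 0.3, prior count 2) of log2 CPM on GC content and log2 exon length. Other alternatives were DESeq2 1.42.0, its size factors, upper-quartile scaling, no filter, either offset alone, a replicate block, the larger run of control 1 only, and leaving out each library. The fits were also run on simulated data with the same spread in both groups. Those data lack the larger spread and shared order of the controls, so they do not show how the fits deal with them. RPKM is CPM per kilobase of exon.

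The members and the gene lists were chosen with earlier results of these data known. Values in every sample are given for the core subunits (1 of the 7 is not reported here), the assembly factors, Ndufa4 and Ndufa4l2, and the 4 largest and 4 smallest changes among the remaining subunits; in the pathway lists, for at most 3 genes called in the more frequent direction and 2 called in the opposite one. Uqcrc1, Cox5a, Nrf1, Kap, Lyz2, Chchd4, mt-Nd3, Ndufb1-ps and the members of the last group named for a special feature (Ndufa1, Ndufa2, Ndufa12, Ndufb2, Ndufv3) were named after their values were seen.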

Additional observations from a re-analysis of the deposited data

How the results depend on the processing

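Left-out libraries, as lowest to highest value: subunit genes higher 11 to 27 (19 with all) and lower 1 to 4 (2); assembly factors higher 2 to 6 (4); core subunits lower 1 to 3 (2); distal membrane arm higher 5 to 9 (8); complexes II to V higher 6 to 29 (26); regulators lower 3 to 6 (6); other assembly factors higher 4 to 6 (6); all genes called higher 2340 to 4877 (4148) and all genes called lower 2731 to 5441 (4431). GC and length offsets gave 12 subunit genes higher, 1 assembly factor and 1 core subunit lower, 5 distal arm, 11 complex II to V and 3 other assembly factor genes higher, 5 mitochondrially encoded genes lower, and an assembly factor median of 0.14. Length offsets gave 12 subunit genes higher and 5 lower, 2 assembly factors lower, 5 distal arm and 15 complex II to V genes higher, 4 mitochondrially encoded genes lower, and a subunit minus assembly factor median of -0.29 (-0.08 without). GC offsets gave 1 subunit gene, which is a core subunit, and 5 mitochondrially encoded genes lower. Upper-quartile scaling, which moved the median of all genes to 0.19, left 1 subunit gene, a core subunit, lower.

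The labels do not say whether the replicate numbers pair the kidneys. Deviations of same-numbered kidneys correlated at 0.04, -0.08 and -0.03, and those of differently numbered kidneys at -0.10 to 0.10. With so few libraries, these values cannot show whether kidneys were paired. A replicate block alone gave 18 subunit genes higher, losing Ndufab1 (0.55, adjusted p = 0.0624), and kept each other call on a member. The block with GC and length offsets gave 10 subunit genes higher and 1 lower, 1 assembly factor and 1 core subunit lower, 11 complex II to V and 3 other assembly factor genes higher, 5 mitochondrially encoded genes lower, 2713 of all genes called higher and 2682 of all genes called lower, and an assembly factor median of 0.16.

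The direction reversed for Ndufa1 (-0.19 with both offsets, -0.05 with length offsets, -0.19 with block and offsets), Ndufa2 (-0.37 with both and -0.37 with length offsets) and Ndufaf1 (-0.63, -0.37 and -0.63). With both offsets 10 members changed sign in all, 7 of them called in neither fit. The cause was not tested. With DESeq2's size factors or its test, all 46 members kept their side of the threshold, with Ndufaf1 at -0.01 by the DESeq2 test, and with the larger run of control 1 only, Ndufab1 lost its call (0.51, adjusted p = 0.0502).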
